A study of Rattus norvegicus with 9 samples.

Results

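Among the 192 distinct tRNA-derived fragments (tRFs) of the deposited comparison of rat islets, 6 small RNAs were cut from the initiator methionine tRNA (host name tRNA-iMet-CAT, nuclear). They were chosen by host name alone, and each occupied 1 row, which makes 6 of 192 sequences. Samples were pancreatic islets of 22-day-old male Sprague Dawley rats. The LP group (n = 4) was the offspring of mothers that received a low-protein diet (5.3% protein) during gestation and lactation, and the CD group (n = 5) that of mothers on a chow diet (16.8% protein). LP exposure serves as a model of susceptibility to diabetes, and the comparison asks which islet tRFs differ under it. The labels and the study's methods give the carbohydrate and fat shares of the low-protein diet the other way round. Whole islets were sequenced, so fewer cells of a type and less RNA per cell cannot be told apart, and the table holds no marker of islet cell types against which the tissue could be checked. Each sample is listed as a single rat, but whether littermates were included is not stated, so errors cover the spread between these samples.

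The table holds only tRFs that the authors had already called as changed between these same samples. The difference between LP and CD in each iMet tRF is therefore given as a description of its size. It is not independent evidence that the fragment changed, and selection tends to make such sizes too large.

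The initiator tRNA carries the methionine that starts protein synthesis. With eIF2 and GTP it forms the complex that scans for the start codon, while a separate elongator tRNA supplies methionine inside proteins. Like every tRNA it receives CCA at its 3′ end after transcription and is charged there. tRFs fall into classes by where the tRNA is cut. Those that keep the CCA end after a cut in the T arm, the stem and loop nearest the 3′ end, are 3′ tRFs, and those that run from the 5′ end towards the anticodon are 5′ fragments. No tRF of an elongator or a mitochondrial methionine tRNA stood in the table (0 of 192).

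Of the 6 sequences, 5 ended in CCA and 1 did not. All are printed 5′ to 3′ as the table gives them, because the CCA-ended ones differ only in where they start, and a terminal CCA is in capitals.
tRNA-iMet-CAT 16: ccatcctctgctaCCA
tRNA-iMet-CAT 17: accatcctctgctaCCA
tRNA-iMet-CAT 18: aaccatcctctgctaCCA
tRNA-iMet-CAT 19: aaaccatcctctgctaCCA
tRNA-iMet-CAT 20: gaaaccatcctctgctaCCA
tRNA-iMet-CAT 32: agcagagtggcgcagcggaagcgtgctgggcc

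The fragments are named by their length in nucleotides (nt). The 5 CCA-ended tRFs were nested, each holding the next shorter one whole and adding a single base at the 5′ end (C, A, A, A and G as first base at 16, 17, 18, 19 and 20 nt). In the known cloverleaf of this tRNA the 16-nt fragment starts on the 3′ strand of the T stem, and the 4 longer ones start within the T loop. The 32-nt fragment has the known 5′ end of the mature tRNA and stops directly before the anticodon. It comes from the other end of the tRNA and neither holds nor lies in any nested sequence. None of the 6 sequences was contained in, or contained, a tRF of another host. The longest 3′ end that the nested set shared with any other host was 4 bases, the CCA and the base before it. The initiator and elongator genes are not separated among the 13 Trnam-cau genes that RefSeq names in the GRCr8 assembly, and the build behind the table is not given in the sources used here, so no gene copy or position was assigned. Nested reads come from the same tRNA, and these 5 tRFs are not independent of each other.

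The values behind the plots are whole-number reads of each sequence. A normalized read count is that number divided by the size factor of its library. Over all 192 tRFs, libraries held 12556 to 40166 reads in LP and 26166 to 34775 in CD. The size factors, recovered from the deposited transformed columns, were 0.730 to 1.80 in LP and 0.625 to 1.20 in CD. Log2 fold changes of LP over CD come from edgeR's quasi-likelihood test with a standard error (SE). Adjusted p-values cover the 180 tRFs that passed edgeR's filter at a minimum count of 10, which need not be met in every sample. All 6 iMet tRFs passed that filter. The 32-nt fragment passed mainly through CD, where it was higher. It had at least 10 reads in CD 2 to CD 5, but among the LP samples only in LP 4.

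The 17-nt 3′ tRF was the most abundant of the 6, at rank 26 of the 192 tRFs by mean level. It had 38, 121, 163 and 232 reads in LP 1 to LP 4 and 239, 324, 229, 232 and 188 in CD 1 to CD 5. After scaling it reached 103 ± 35.0 (SD, n = 4) in LP islets and 275 ± 90.2 (SD, n = 5) in CD islets, in normalized read counts. Every LP sample lay below every CD sample, with LP 1 the lowest at 52.1 and the highest LP sample at 129.1 against a lowest CD sample at 190.4. The log2 fold change was -1.40 ± 0.42 (SE, edgeR adjusted p = 0.00565).

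The 16-nt 3′ tRF, which starts in the T stem, followed at rank 38. Its reads were 36, 120, 133 and 133 in LP 1 to LP 4, against 121, 228, 186, 189 and 169 in CD 1 to CD 5. It averaged 83.6 ± 29.6 normalized read counts in LP and 196 ± 36.3 in CD, and the groups did not overlap. Its log2 fold change of -1.22 ± 0.39 was the smallest of the 6 (edgeR adjusted p = 0.00748).

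The 18-nt and 19-nt 3′ tRFs were lower and more variable, at ranks 78 and 75. The 18-nt tRF had 7, 19, 39 and 75 reads in LP 1 to LP 4 and 88, 116, 54, 53 and 43 in CD 1 to CD 5. The 19-nt tRF had 7, 24, 38 and 66 reads in LP 1 to LP 4 and 86, 149, 61, 39 and 35 in CD 1 to CD 5. CD 1 and CD 2 stood above the other CD samples in both. For the 18-nt tRF, CD 1 and CD 2 had 141 and 128 normalized read counts, against 44.4 to 57.2 in CD 3 to CD 5. For the 19-nt tRF they had 138 and 164, against 36.2 to 50.7. Group levels were 24.3 ± 13.6 in LP and 83.0 ± 47.3 in CD for the 18-nt tRF, a log2 fold change of -1.73 ± 0.54. They were 24.1 ± 11.2 in LP and 86.1 ± 60.0 in CD for the 19-nt tRF, a log2 fold change of -1.80 ± 0.57. The 18-nt levels of the groups were separated by only 2.70 normalized read counts. The 19-nt levels overlapped, since LP 4 at 36.7 was above CD 5 at 36.2.

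The 20-nt 3′ tRF, the longest of the nested set and at rank 76, was the steadiest in LP. It had 19, 28, 53 and 58 reads in LP 1 to LP 4 and 55, 98, 101, 63 and 52 in CD 1 to CD 5. Scaled, these were 26.04 to 36.48 normalized read counts in LP and 53.7 to 108 in CD, with no overlap. The means were 30.7 ± 4.67 in LP and 80.3 ± 20.6 in CD. The log2 fold change was -1.38 ± 0.39 and the edgeR adjusted p, 0.00498, was the lowest among the 6.

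The 32-nt 5′ fragment was the scarcest of the 6 by mean level, at rank 160. It had 3, 4, 3 and 21 reads in LP 1 to LP 4 and 5, 18, 24, 14 and 64 in CD 1 to CD 5. Such counts are imprecise, as 3 reads carry an exact Poisson 95% interval of 0.619 to 8.77, which covers counting error only. Levels were 5.46 ± 4.25 normalized read counts in LP and 25.8 ± 23.1 in CD. They overlapped, because LP 4 at 11.7 exceeded CD 1 at 8.001, and CD 5 at 66.1 stood far above the other CD samples, which reached at most 19.95. The log2 fold change, -2.16 ± 0.64 (edgeR adjusted p = 0.00541), was the largest of the 6 in size and leaned on single libraries. It was -1.46 without CD 5 and -2.95 without LP 4, and LP stayed lower in both.

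**Figure D1:**
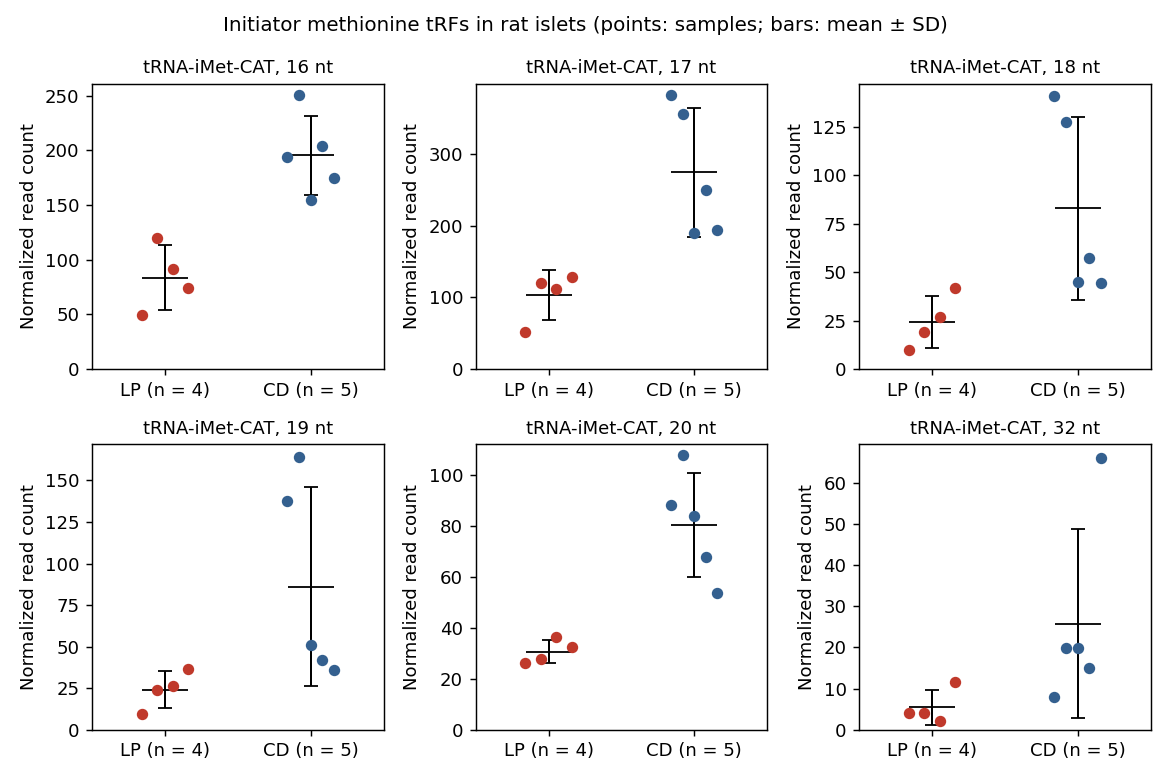
Normalized read counts (y axis, linear, own scale in each panel) of the 6 tRNA-iMet-CAT tRFs in LP (n = 4) and CD (n = 5) islets. Points are samples in replicate order and bars are means ± SD. The 16, 17, 18 and 20-nt tRFs do not overlap between groups, while LP 4 reaches into the CD range for the 19 and 32-nt tRFs.

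All 6 iMet tRFs were lower in LP past 2-fold and an edgeR adjusted p of 0.05. Of the 180 tRFs tested, 56.1% were called lower by the same rule (101 lower, 75 higher), and since rows were selected on this contrast nothing is read from the members' count. The median log2 fold change was -1.57 over the 6 and -1.45 over all tested. Every LP level lay below every CD level for 4 of the 6, where 47.9% of the 192 tRFs had that pattern. Under a 4-fold rule only the 32-nt fragment was called, where 25.6% of tRFs were called lower.

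The calls rested on the scaling of the libraries. The authors' size factors and those computed from the table itself differ, and the table holds only selected tRFs. With TMM scaling over the table, the median log2 fold change of all tested tRFs moved to -0.79, with 71 lower and 76 higher, and 1 of 6 iMet tRFs was called lower where 38.8% of tRFs were. That was the 32-nt fragment, at -1.60 ± 0.66 (edgeR adjusted p = 0.0387). The 5 nested tRFs had log2 fold changes of -0.58 to -1.11 and adjusted p-values of 0.0548 to 0.134. When DESeq2 took its size factors from the table, the median was -0.72, with 61 lower and 76 higher. The 32-nt fragment alone of the 6 passed again (log2 fold change -1.53 ± 0.69, DESeq2 adjusted p = 0.0413), where 31.8% were called lower, and the nested tRFs had adjusted p-values of 0.0722 to 0.244. All 6 stayed below 0 in each of these fits. Set against the median of all tested tRFs, the 16-nt tRF lay 0.21 to 0.28 above it in the 3 scalings, with SEs of 0.36 to 0.39. The 32-nt fragment differed from it by -0.71, -0.82 and -0.81, with SEs of 0.64 to 0.69. These SEs are those of the fold changes, not of the differences from the median. That median mixes rows selected as lower and as higher, so it is no baseline of unchanged tRFs. All 6 were also called lower without the filter and with DESeq2 on the authors' size factors (58.3% of tRFs in either case). Both outcomes were largely set beforehand, since all 6 had passed the filter and the rows had been selected with DESeq2. Under both table scalings, the 17 and 20-nt tRFs were the ones whose groups still did not overlap (2 of 6, where 20.3% of the 192 tRFs had that pattern with TMM and 15.1% with the DESeq2 factors).

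**Figure D2:**
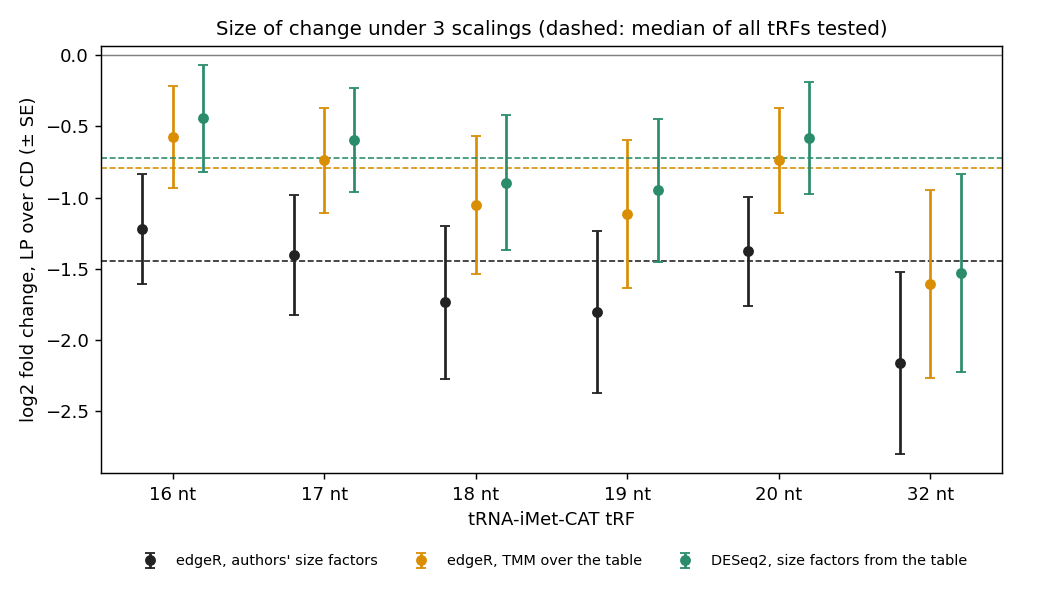
Log2 fold change of LP over CD (y axis, ± SE) for the 6 iMet tRFs (x axis, by length) under 3 library scalings, with dashed lines at the median of all tRFs tested under each (-1.45, -0.79 and -0.72). All estimates are below 0, and those of the nested tRFs are closer to 0 with TMM and with size factors from the table.

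Summed, the 6 tRFs came to 110, 316, 429 and 585 reads in LP 1 to LP 4 and to 594, 933, 655, 590 and 551 in CD 1 to CD 5. In normalized read counts the sum was 272 ± 81.5 in LP and 746 ± 226 in CD, or 2.75 times higher in CD. The log2 ratio of the sums, LP over CD, was -1.46, against -0.80 with TMM over the table and -0.65 with the DESeq2 factors. LP 1 was the lowest at 151, and the other LP samples lay between 295 and 325. As a share of the table's reads the set made up 0.876 to 1.94% in LP and 1.58 to 3.34% in CD, and these ranges overlapped. No test was made on the sum, because its members had been selected as lower.

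Ratios between fragments of the same library do not depend on scaling. The selection of the rows did not use them directly, but both sides of each ratio had been selected as lower in LP. A length that did not differ between the groups would be missing, so the ratios and shares are not free of that selection. Reads of the 17-nt tRF exceeded those of the 16-nt tRF in 9 of 9 libraries, and both exceeded each of the other 4 in 9 of 9. In LP 1 and LP 2 the 2 leading fragments were nearly level, at 38 and 36 reads and at 121 and 120. The 18, 19 and 20-nt tRFs had no fixed order. The 20-nt tRF was above the 19-nt one in 6 of 9 libraries, and in each group the means of these 3 fragments differed by less than the SDs of the 18 and 19-nt tRFs. The log2 ratio of the 17-nt to the 16-nt tRF was 0.08, 0.01, 0.29 and 0.80 in LP 1 to LP 4 and 0.98, 0.51, 0.30, 0.30 and 0.15 in CD 1 to CD 5. The ranges overlapped widely. Mean ratios were 0.30 ± 0.36 in LP and 0.45 ± 0.32 in CD, a difference of -0.15 that was not beyond the spread between samples (two-sided exact permutation test, p = 0.524, adjusted p = 0.524 over 2 ratios). The smallest p that this design allows is 0.0159.

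The make-up of the nested set, which holds only selected lengths, was similar in range in both groups. The 17-nt tRF held 38.4 ± 2.31% of the nested reads in LP and 38.2 ± 2.32% in CD. The 16-nt tRF held 31.7 ± 6.21% in LP and 28.5 ± 5.79% in CD. Its share was lowest in CD 1 at 20.5% (Wilson 95% interval 17.48 to 23.99%) and highest in LP 2 at 38.5% (33.23 to 43.97%). The 18-nt tRF held 8.77 ± 3.31% in LP and 10.8 ± 2.83% in CD. The 19-nt share was 8.71 ± 2.22% in LP and 10.9 ± 4.33% in CD. That of the 20-nt tRF was 12.4 ± 3.87% in LP and 11.5 ± 2.58% in CD. Samples differed more within a group than the groups did on average. CD 1, CD 2 and LP 4 had less of the 16-nt tRF and more of the 18 and 19-nt tRFs than the other 6 samples. The read-weighted mean length of the nested set was 17.1 to 17.4 nt in LP and 17.2 to 17.5 nt in CD.

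**Figure D3:**
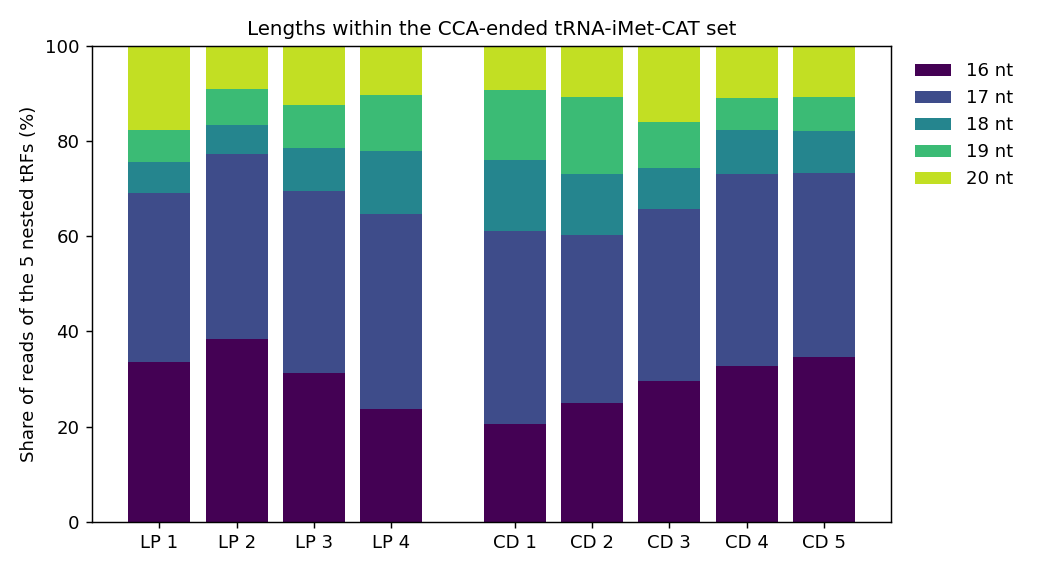
Share of the reads of the 5 nested CCA-ended tRFs (y axis, %) held by each length, per sample (x axis, LP 1 to LP 4, then CD 1 to CD 5). The 17-nt share is 35.5 to 41.1% in LP and 35.4 to 40.6% in CD, while the 16-nt share runs from 23.6 to 38.5% in LP and from 20.5 to 34.7% in CD.

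The 5′ fragment and the nested 3′ tRFs were both lower in LP on average but were not ordered alike in all samples. LP 4 was the highest LP sample for both, at 11.7 and 314 normalized read counts. Per 100 nested reads there were 2.80, 1.28, 0.704 and 3.72 reads of the 32-nt fragment in LP 1 to LP 4. In CD 1 to CD 5 there were 0.849, 1.97, 3.80, 2.43 and 13.1. CD 5, with the most 5′ fragment, had the lowest nested sum among the CD samples (503 normalized read counts), and CD 1, with the least 5′ fragment among them, had the second highest nested sum (943, against 1007 in CD 2). In CD 5 the 32-nt fragment, at 64 reads, outnumbered the 18, 19 and 20-nt tRFs, whereas in the other 8 libraries it was the scarcest of the 6. On the log2 scale the ratio was -5.68 ± 1.04 in LP and -5.06 ± 1.41 in CD. The difference of -0.62 was not beyond the spread between samples (two-sided exact permutation test, p = 0.508, adjusted p = 0.524 over 2 ratios), and without CD 5 it was -0.08. This ratio was chosen after its values were seen.

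**Figure D4:**
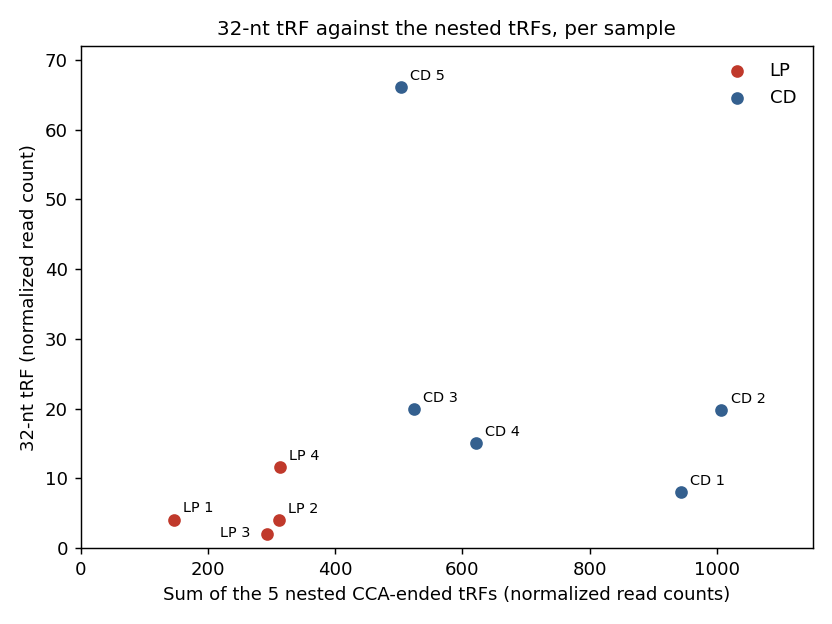
Normalized read count of the 32-nt 5′ fragment (y axis) against the sum of the 5 nested 3′ tRFs (x axis), 1 point per sample, LP and CD in separate colours. All LP samples have a lower nested sum (147 to 314) than all CD samples (503 to 1007), and CD 5 stands alone at 66.1 for the 5′ fragment.

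Beside fragments of other tRNAs, the nested iMet tRFs lay inside the range of their kind. Of the 42 nuclear CCA-ended tRFs of 16 to 24 nt from other hosts, 37 were called lower and 1 higher (edgeR, 2-fold and adjusted p of 0.05), with a median log2 fold change of -1.69 and a range of -2.69 to 1.97. The table scalings called fewer of them lower, 22 with TMM (median -1.02) and 15 with the DESeq2 factors (median -0.87). The 5 nested iMet tRFs, at -1.22 to -1.80, were inside that range, and 29 of the 42 had a lower fold change than the iMet set's own median of -1.40. The 32-nt fragment was set beside fragments of its own length class. Of the 58 nuclear tRFs from other hosts that lack a CCA end and measure 25 to 40 nt, 48 were called higher and 10 lower, with a median log2 fold change of 1.87. The table scalings called 48 higher and 7 lower (TMM), and 48 higher and 4 lower (DESeq2 factors). These counts describe the selected rows and were not tested against each other.

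**Figure D5:**
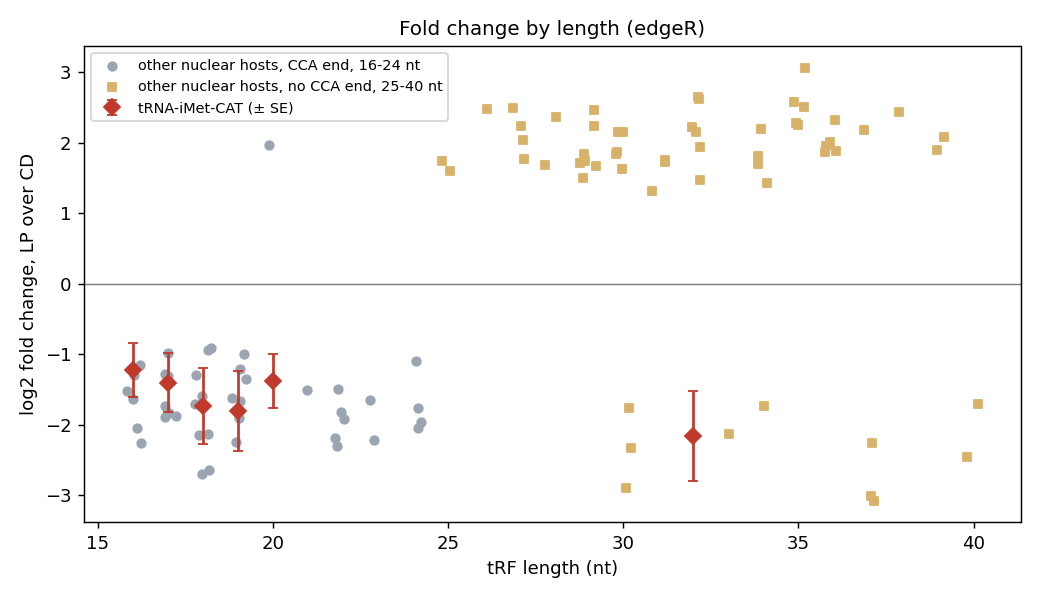
Log2 fold change of LP over CD (y axis, edgeR) against tRF length in nt (x axis) for the 6 iMet tRFs (diamonds, ± SE), the 42 nuclear CCA-ended tRFs of 16 to 24 nt (circles) and the 58 nuclear tRFs that lack it and measure 25 to 40 nt (squares), all from other hosts. The nested iMet tRFs lie among the circles, and the 32-nt iMet fragment, at -2.16, lies among the 10 squares called lower with the authors' size factors.

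By pattern over the 9 samples, the tRFs of other hosts most like the 17-nt iMet tRF were also short 3′ tRFs. Likeness was the root mean square difference of log2 levels, each centred on its own mean, and it was 0.964 at the median over the 186 tRFs of other hosts. The closest, at 0.133, was a 19-nt fragment shared by tRNA-Leu-CAA and tRNA-Leu-CAG, with 256 ± 78.2 normalized read counts in LP and 595 ± 170 in CD. The next were a 16-nt fragment of tRNA-Ala-AGC at 0.214, with 79.5 ± 29.9 in LP and 229 ± 93.2 in CD, and an 18-nt fragment of tRNA-Leu-CAG at 0.214, with 138 ± 43.4 in LP and 451 ± 183 in CD. Their sequences are shown to set them beside the iMet fragments, with the terminal CCA in capitals.
tRNA-Leu-CAA/tRNA-Leu-CAG 19a: aatcccacttctgacaCCA
tRNA-Ala-AGC 16c: cccgcatcctccaCCA
tRNA-Leu-CAG 18a: atcccactcctgacaCCA

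These 3, picked as the closest of the 186, lay closer to the 17-nt iMet tRF than its own nested partners did. The nested partners all lay below the median of 0.964. The 16-nt iMet tRF differed from it by 0.307, with 5 tRFs of other hosts closer. The 20, 18 and 19-nt tRFs differed by 0.371, 0.372 and 0.443, with 15, 15 and 23 tRFs of other hosts closer. The 32-nt fragment of the same tRNA differed by 1.11, and 101 of the 186 tRFs of other hosts were closer. All of these values share libraries and size factors, and the measure is a description with no test. It includes the difference between LP and CD on which the rows were selected, so tRFs selected as lower tend to lie close together. It also includes counting error, which weighs more on scarce tRFs. The 18 and 19-nt tRFs had 7 reads each in LP 1, and the part of low counts in these distances was not tested.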

How the data were processed

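Islet RNA was treated before library construction to free blocked ends and to remove base methylations, among them N1-methyladenosine, which can stop reverse transcription in the T loop. How completely this worked in each library was not tested. tRFs were annotated against nuclear and mitochondrial tRNA collections and kept at a minimum of 2 reads. No source used here names the aligner, the build or whether molecular tags were used. Raw counts, unscaled by the authors, were deposited for 255 rows, collapsed here to 192 sequences. Its columns headed normalized counts are score values that the authors had made by a variance-stabilising transformation. A fit of that transformation (largest residual 5.72e-05) gave the size factors. The authors' own fold changes and adjusted p-values in the table were not used.

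Groups were compared with edgeR 4.0.16 (R 4.3.3) and Benjamini-Hochberg adjustment, and alternatively with DESeq2 1.42.0. Standard errors come from the fold change and its F statistic. Ratios used raw counts plus 0.5 and scipy 1.17.1, and likeness used log2(normalized read count + 1). The fits were tested on simulated data. Every iMet sequence is named, with the 3 most similar tRFs of other hosts. Members and comparison classes were chosen with earlier results of these data known. No 2 replicates agreed within sampling noise. Intervals cover counting error only.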

Additional observations from a re-analysis of the deposited data

Results flagged for a closer look

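Within each group, the 6 tRFs, their sum and the 2 ratios, 18 sets of values in all, were searched on the log2 scale for a sample far from its neighbours, where chance finds about 0.9. LP 1 was found 2 times. The sum contains the 17-nt tRF and the sets share libraries and size factors, so these 2 are not independent. For the 17-nt tRF, LP 1 had 52.1 normalized read counts, and its gap to the next LP sample took up 0.846 of the group's range. For the sum of the 6 tRFs, LP 1 had 151, with a gap of 0.874 of the range. LP 1 had the fewest reads over the table, at 12556, and its part in these values was not tested. Without LP 1 the log2 fold change of the 17-nt tRF was -1.19 (edgeR adjusted p = 0.0169). LP 1 was the lowest LP sample, so leaving it out could not make the groups overlap.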

How the results depend on the processing

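Alternatives were planned, apart from the 32-nt ratio, the nested sum, the paired ratio and the class of 25 to 40 nt, which were added after seeing the data. No fit turned a direction. The main dependence was on scaling: 6 iMet tRFs were called lower, against 1 with TMM over the table, 1 with DESeq2 and its own size factors over the table, and 1 at 4-fold. The number with no overlap was 4 (47.9% of the 192 tRFs), against 2 with either table scaling (20.3% with TMM and 15.1% with the DESeq2 factors). The log2 ratio of the sums, LP over CD, was -1.46, against -0.80 with TMM and -0.65 with DESeq2 factors, and the 37 short CCA-ended tRFs of other hosts called lower became 22 and 15. DESeq2 with the authors' size factors and the fit without a filter called all 6 lower (58.3% of tRFs in either case). Neither is a separate check, since the rows had been selected with DESeq2 and all 6 had passed the filter.

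Leaving out each sample in turn kept 6 called lower, 4 to 6 without overlap, and sums of -1.56 to -1.26. The shares of all tRFs were not taken for these fits or for the replicate block, so nothing is read from the counts. Leaving out a sample cannot make separate groups overlap, so the number without overlap could only stay at 4 or rise. All 6 were without overlap when LP 4 was left out. The ratio difference was -0.32 to -0.02 for 17 over 16 nt and -1.04 to -0.08 for the 32-nt fragment (exact permutation test, lowest p = 0.0714 and 0.257). The values showed no pairing by replicate number: deviations of equal-numbered samples correlated at -0.40 to 0.08. The labels do not say whether equal numbers belong together. With the replicate block, all 6 were called lower at -1.31 to -1.87, and the paired ratio difference was -0.22 (exact permutation test, p = 0.625). Depth limits the 32-nt fragment most, at 3 to 21 reads in LP.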
